A study of Homo sapiens with 8 samples.

Results

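The neuropilins, their secreted class 3 semaphorin ligands and the plexins that carry the signal were examined as 10 genes: the receptors NRP1 and NRP2, the plexins PLXNA1, PLXNA2 and PLXND1, and the ligands SEMA3A, SEMA3B, SEMA3C, SEMA3D and SEMA3F. The genes were chosen by name, and 35 probe sets of the array carry 1 of these symbols and no other in the platform annotation, among 54613 probe sets tested and 19775 genes with a probe set of their own. Each gene is described first by its brightest probe set, the one with the highest mean log2 signal over all arrays, and then by its other probe sets.

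RNA of 4 groups of human breast epithelial cells was hybridised to Affymetrix U133 Plus 2.0 arrays, 2 arrays per group. MCF-10F is an immortalized normal-like line. trMCF clone 11 is 1 clone, picked by ring cloning from MCF-10F cells that had been transformed with a high dose of estradiol, and it forms spherical masses but no tubules in collagen. The remaining groups are cells of this clone that were kept for 26 days in all-trans retinoic acid (ATRA) at 1 μM or at 10 μM, with the medium replaced daily. ATRA is the ligand of the nuclear retinoic acid receptors. All groups therefore descend from MCF-10F, and every ATRA array comes from the same clone. The vehicle of the treatment was DMSO. Neither the labels nor the methods state that the trMCF clone 11 arrays are of DMSO cells, or that the 2 arrays of a group are of separate cultures, so the p-values below measure only the spread between these arrays. The untreated replicate 1 of the clone carries the disease state label of the normal cells and was placed by its title.

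Semaphorins were found as cues that turn growing axons, and the same ligands act on vessels and on the shape, adhesion and migration of epithelial cells. A neuropilin binds the secreted ligand but has a short tail with no enzyme of its own, and a plexin partner passes the signal on to small GTPases and the cytoskeleton. SEMA3A is known mainly as a ligand of NRP1, SEMA3F mainly of NRP2, and SEMA3C of both, while the neuropilins also bind members of the VEGF family.

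The promoters of NRP2 and SEMA3C are shown because these members moved in opposite directions with ATRA. The windows are the 250 bases before each annotated start, read 5′ to 3′ on the gene's strand from RefSeq on GRCh38.p14. NRP2 has 1 such window, at chr2:205682251-205682500 on the plus strand. SEMA3C has 2, at chr7:80922390-80922639 and chr7:80919052-80919301 on the minus strand. Capitals mark a GC box (GGGCGG on either strand).
NRP2: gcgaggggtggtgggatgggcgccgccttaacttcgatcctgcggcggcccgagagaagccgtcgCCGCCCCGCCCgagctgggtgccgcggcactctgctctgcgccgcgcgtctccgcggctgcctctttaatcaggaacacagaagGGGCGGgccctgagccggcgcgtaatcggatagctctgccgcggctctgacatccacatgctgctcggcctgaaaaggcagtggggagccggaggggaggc
SEMA3C, window 1: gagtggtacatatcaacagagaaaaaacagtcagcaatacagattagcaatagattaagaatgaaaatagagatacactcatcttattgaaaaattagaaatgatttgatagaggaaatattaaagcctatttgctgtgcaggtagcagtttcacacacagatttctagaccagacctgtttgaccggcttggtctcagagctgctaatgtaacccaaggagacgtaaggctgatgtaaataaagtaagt
SEMA3C, window 2: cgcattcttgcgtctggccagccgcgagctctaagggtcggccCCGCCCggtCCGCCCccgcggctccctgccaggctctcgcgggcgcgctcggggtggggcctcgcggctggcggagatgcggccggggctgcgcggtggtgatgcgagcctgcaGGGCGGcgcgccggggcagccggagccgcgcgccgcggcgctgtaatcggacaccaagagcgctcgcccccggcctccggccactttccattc
GC boxes numbered 3 in the NRP2 window, 2 of them sharing a base, 0 in the first SEMA3C window and 3 in the second, against a GC box in 42.6% of all 35116 windows of this length in the table. The G and C content was 70.0% for NRP2, 36.4% for the first SEMA3C window and 77.6% for the second. The half-site of retinoic acid receptors was searched as AGGTCA, and as GGGTCA, and as AGTTCA, and as GGTTCA, on both strands. None of these letters stood in the 3 windows, while 33.8% of all windows hold at least 1 of them. Across the 15 windows of the 8 members found in the table, a half-site was present for SEMA3B, SEMA3D, SEMA3F and PLXND1, and no pair of half-sites spaced by 1, 2 or 5 bases was present, against 0.202% of all windows. These matches are a description of the letters only. Neither a match nor its absence in a window of this length says anything about the factor. NRP1 and SEMA3A were not matched.

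NRP2 was high in MCF-10F, low in trMCF clone 11 and high again in the same clone after ATRA. Its signal was 659 and 1477 in MCF-10F, 86.2 and 129.9 in trMCF clone 11, 1493 and 1849 at 1 μM and 1689.9 and 1814 at 10 μM. The highest array of the clone lay below the lowest array of every other group, and the ranges of the ATRA doses overlapped each other while lying above both MCF-10F arrays. From MCF-10F to the clone the log2 signal fell by 3.22 (SE 0.41, 95% interval -4.24 to -2.21, limma adjusted p = 0.0244), which is 0.107 times the MCF-10F level. At 1 μM it rose by 3.97 over the clone, a 15.7-fold difference (SE 0.41, 2.96 to 4.99, limma adjusted p = 0.0245), and at 10 μM by 4.05, or 16.6-fold (SE 0.38, 3.17 to 4.93, limma adjusted p = 0.0041). Less RNA per cell and fewer cells that make it cannot be told apart on RNA from whole cultures, here and for every gene below. The treated clone did not differ from MCF-10F by the test, with intervals that allow a log2 difference of -0.26 to 1.76 at 1 μM and -0.06 to 1.71 at 10 μM.

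The 11 probe sets of NRP2 shared the clone as the lowest group, and 10 of them had the higher mean at both doses than in MCF-10F. All 11 had a lower mean in the clone than in MCF-10F, with log2 differences from -3.22 to -0.53 and a median of -1.24, and 5 passed the test. All 11 were higher at 1 μM than in the clone, with a median of 2.03 and 6 past the test, and all 11 at 10 μM, with a median of 2.05 and 9 past the test. The probe sets interrogate the same transcripts and are no replicates of each other. Without trMCF clone 11 replicate 1 the log2 difference of the clone from MCF-10F was -2.93, and its call was lost there and without either 1 μM array. The 1 μM arrays enter this comparison only through the shared spread. With just the MCF-10F and clone arrays in the fit, the fall did not pass, and limma's adjusted p was 0.119. In the rise at 1 μM it was 0.301 without 1 μM replicate 1 and 0.333 without 1 μM replicate 2, and in the rise at 10 μM it was 0.0602 without either 10 μM array, with the lone array left in a dose assumed to vary like the other groups.

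**Figure D1:**
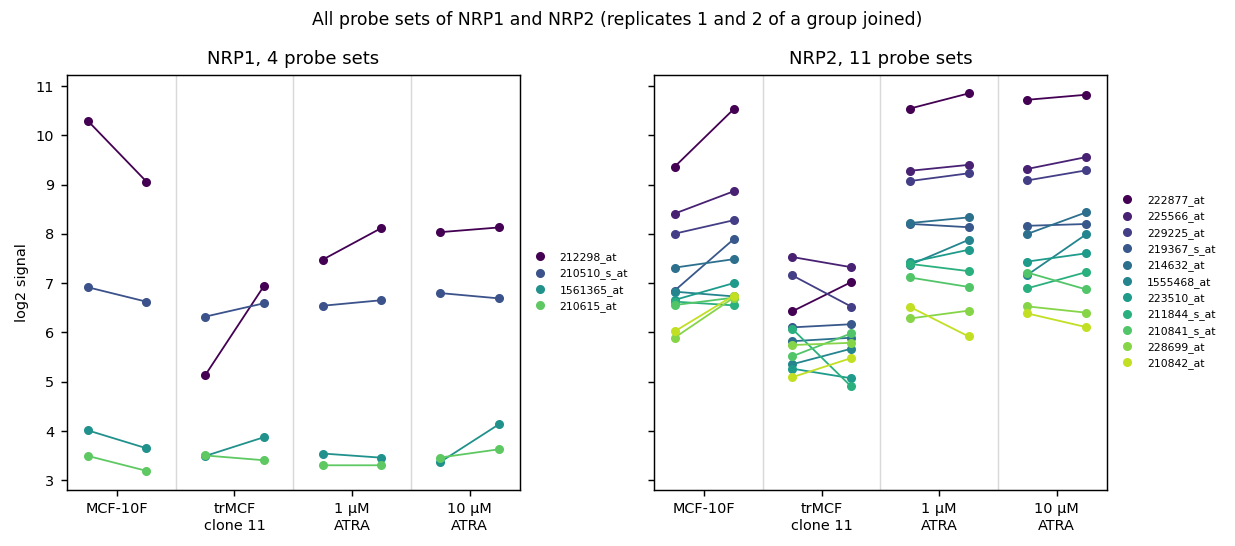
Log2 signal (vertical axis) of the 4 probe sets of NRP1 and the 11 of NRP2 on each array; points are arrays, and a line joins the 2 arrays of a group. All 11 NRP2 probe sets have a lower mean in trMCF clone 11 than in the other groups, whereas for NRP1 the brightest probe set varies more than the other 3.

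NRP1, the co-receptor of SEMA3A and of VEGF-A, had its lowest level in the clone, but with wide spread between arrays. The signal of its brightest probe set was 1262 and 535 in MCF-10F, 35.0 and 123 in the clone, 178 and 278 at 1 μM, and 262 and 280.4 at 10 μM. Both MCF-10F arrays lay above all others and both clone arrays below all others. The log2 difference of the clone from MCF-10F was -3.65 (SE 0.68, 95% interval -5.31 to -1.98), and limma's adjusted p of 0.0502 did not pass the threshold. The size depended on which clone array entered: the difference was -4.55 without replicate 2 of the clone (adjusted p = 0.0103) and -2.74 without replicate 1 (adjusted p = 0.0763), and without MCF-10F replicate 1 it was -3.03 (adjusted p = 0.213). With all 8 arrays in the fit the adjusted p was 0.0171, with only the compared arrays 0.157, with the replicate number as a block 0.0706 and with a floor of 16 it was 0.2. The difference from the clone was 1.76 at 1 μM (limma adjusted p = 0.245) and 2.05 at 10 μM (limma adjusted p = 0.107), neither past the test. Without trMCF clone 11 replicate 2 these were 2.67 (adjusted p = 0.0403) and 2.95 (adjusted p = 0.00919), and without replicate 1 they were 0.86 (adjusted p = 0.5) and 1.14 (adjusted p = 0.246). Against MCF-10F the treated clone stood at -1.88 and -1.60, neither past the test. The next brightest of the other 3 probe sets had the same order of group means at a smaller size, from 79.9 to 121 over all arrays, with the clone at -0.32 against MCF-10F. The remaining ones were dim, from 9.14 to 17.6, and none of the 3 passed the test.

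None of the 3 plexins passed the test in any comparison, at any of their 9 probe sets. PLXNA1, a partner of both neuropilins, was 1474 and 1382 in MCF-10F, 873 and 1156 in the clone, 1086.5 and 1043 at 1 μM and 1090.0 and 1032 at 10 μM. The MCF-10F arrays were the highest, with a log2 difference of the clone of -0.51 that did not pass the test (SE 0.18, limma adjusted p = 0.199). PLXNA2, another partner in class 3 signalling, was 393 and 181 in MCF-10F, 146 and 101 in the clone, 156 and 203 at 1 μM and 142 and 184 at 10 μM. Its clone arrays lay below both MCF-10F arrays, by 1.14 on the log2 scale (SE 0.40, limma adjusted p = 0.192), and MCF-10F replicate 1 stood far above replicate 2. All 3 PLXNA2 probe sets had the lower mean in the clone, with differences from -1.94 to -1.14, and the higher mean at both doses than in the clone, with a median of 0.87 at 1 μM and 0.92 at 10 μM, yet none passed the test.

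PLXND1, a receptor of SEMA3C with a neuropilin and of SEMA3E without one, went the other way from PLXNA2. Its signal was 196.5 and 215 in MCF-10F, 330.5 and 223 in the clone, 204 and 213 at 1 μM and 202 and 221 at 10 μM. Replicate 1 of the clone stood apart, and replicate 2 lay just above all other groups. The differences were 0.40 for the clone against MCF-10F and -0.38 for 1 μM against the clone, and all 3 probe sets had the higher mean in the clone.

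SEMA3C, a ligand of both neuropilins, was lower in the treated clone than in both untreated groups. Its signal was 3443 and 4429.5 in MCF-10F, 5065 and 4660.2 in the clone, 938 and 1060.3 at 1 μM and 1034 and 1367 at 10 μM. The untreated arrays all lay above the treated ones with no overlap, and the doses overlapped. At 1 μM its log2 level fell by 2.28 from that of the clone (SE 0.18, 95% interval -2.73 to -1.84, limma adjusted p = 0.0169) and at 10 μM it fell by 2.03 (SE 0.20, -2.49 to -1.57, limma adjusted p = 0.00459). Against MCF-10F it fell by 1.97 (limma adjusted p = 0.0224) and by 1.72 (limma adjusted p = 0.00985). The clone itself did not differ from MCF-10F by the test, at 0.32 with an interval of -0.13 to 0.76. SEMA3C thus stood at 0.205 and 0.245 times its level in the clone at 1 and 10 μM. The second probe set gave -2.67 at 1 μM, not past the test, and -2.50 at 10 μM, past it (limma adjusted p = 0.0376).

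Leaving out 1 array of a dose ended the SEMA3C call at 1 μM against the clone (limma adjusted p = 0.266 without replicate 1 and 0.31 without replicate 2) and against MCF-10F (0.326 and 0.335). The latter was lost also without MCF-10F replicate 2 (0.0609). At 10 μM the call against the clone was lost without 10 μM replicate 1 (0.0591), and that against MCF-10F without 10 μM replicate 1 (0.103) or replicate 2 (0.0648). Basal cells are the outer layer of the mammary duct, and 7 of 10 listed basal breast epithelium markers were measured. As a sum they were also lower with ATRA. Their summed signal was 38953 and 18411 in MCF-10F, 29913 and 26828 in the clone, 15675 and 13614 at 1 μM and 12536 and 11061 at 10 μM. At 10 μM against the clone 2 of the 7 fell, KRT14 at -6.66 and ITGA6 at -1.05 on the log2 scale, and at 1 μM none passed the test. Against MCF-10F not every marker followed the sum: at 1 μM KRT5, KRT14, ITGA6 and LAMB3 lay below both MCF-10F arrays, while ITGB4, EGFR and CDH3 overlapped them. EGFR was 1496 and 1872 in MCF-10F, 2448 and 2529 in the clone and 1946 and 1763 at 1 μM. On every ATRA array EGFR and CDH3 were lower than on both clone arrays, whereas ITGB4, and LAMB3 at 1 μM, overlapped the clone. All 7 were above 100 on at least 1 array, and their part in the SEMA3C result was not tested.

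SEMA3A, the classic repelling ligand of NRP1, was highest in MCF-10F. Its signal was 123 and 199 in MCF-10F, 34.8 and 33.3 in the clone, 37.0 and 36.4 at 1 μM and 41.0 and 28.0 at 10 μM. Both MCF-10F arrays lay far above the other 6, which lay close together. The clone fell by 2.20 on the log2 scale (SE 0.24, 95% interval -2.80 to -1.60, limma adjusted p = 0.0182), to 0.218 times the MCF-10F level. Treated and untreated clone did not differ by the test, with intervals of the log2 difference of -0.49 to 0.71 at 1 μM and -0.63 to 0.61 at 10 μM. Against MCF-10F the treated clone was lower, at -2.09 for 1 μM (limma adjusted p = 0.0429) and -2.21 for 10 μM (limma adjusted p = 0.0119). The other 2 probe sets of SEMA3A were dim, between 6.24 and 23.1, and lower in the clone without passing the test.

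With just the MCF-10F and clone arrays in the fit, limma's adjusted p for the fall of SEMA3A in the clone was 0.104. The fall also lost its call without either 1 μM array, and those arrays enter it only through the shared spread. The difference at 1 μM from MCF-10F lost its call without MCF-10F replicate 2 (-1.74), 1 μM replicate 1 (-2.10) or 1 μM replicate 2 (-2.08 on the log2 scale). It lost the call also with the replicate number as a block (limma adjusted p = 0.0663). That at 10 μM lost it without 10 μM replicate 1 (0.069) or replicate 2 (0.13). With the mean over the 3 probe sets in place of the brightest, the adjusted p was 0.08, 0.211 and 0.0749 in these comparisons. Fibroblast markers as a sum were also highest in MCF-10F. The summed signal of all 9 was 3397 and 2343 in MCF-10F, 854 and 1056 in the clone, 560.2 and 506 at 1 μM and 494 and 466 at 10 μM. In the clone 3 of them passed the test: COL1A2 fell by 2.56, FAP fell by 2.13 and DCN fell by 1.22 on the log2 scale. Meanwhile 5 of the 9 stayed under 100 on every array. Unlike SEMA3A, the list differed between the clone and 10 μM ATRA, where COL1A1 fell by 2.11, FAP fell by 1.84 and LUM rose by 1.08. LUM lay between 6.69 and 17.9 over all arrays, near a signal of 16, so its difference has no readable size. The part of the fibroblast markers in the SEMA3A result was not tested.

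SEMA3F, the ligand of NRP2 that was found as a candidate tumour suppressor, was lower on all ATRA arrays at its brightest probe set. Its signal was 1351 and 1928 in MCF-10F, 1409 and 2269 in the clone, 836 and 819 at 1 μM and 839 and 881 at 10 μM. The treated arrays lay together below all 4 untreated ones. The brightest probe set did not pass the test, with log2 differences from the clone of -1.11 at 1 μM (SE 0.28, limma adjusted p = 0.117) and -1.06 at 10 μM (SE 0.26, limma adjusted p = 0.0598). At 10 μM the difference was -1.40 without trMCF clone 11 replicate 1 (adjusted p = 0.0212) and -0.71 without replicate 2 (adjusted p = 0.0761). The adjusted p there was 0.0433 with the replicate number as a block, 0.0489 after quantile normalization and 0.0133 with the mean over probe sets. All 3 probe sets were lower than in the clone at both doses, and the dimmest of them passed the test at 10 μM, with -1.10 (limma adjusted p = 0.0194). Against MCF-10F the 3 probe sets ranged from -0.96 to -0.04 at 1 μM and from -0.91 to -0.38 at 10 μM, none past the test. At 1 μM the dimmest one overlapped MCF-10F.

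SEMA3B and SEMA3D were dim at the probe sets that name them alone. SEMA3B, a ligand found in the same chromosomal region as SEMA3F, lay between 19.5 and 30.1 at its 1 such probe set. A brighter probe set that names SEMA3B together with MIR6872 lay between 57.9 and 434. At the probe set of SEMA3B alone the clone arrays were the highest, by 0.38 over MCF-10F, which did not pass the test. At the shared probe set the clone arrays were the lowest and the ATRA arrays the highest. Its log2 difference from the clone was 2.27 at 1 μM (limma adjusted p = 0.0281) and 2.44 at 10 μM (limma adjusted p = 0.00536). SEMA3D, a ligand known from heart and vessel development, lay between 10.9 and 13.7, below a signal of 16 on every array, so its differences have no readable size.

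**Figure D2:**
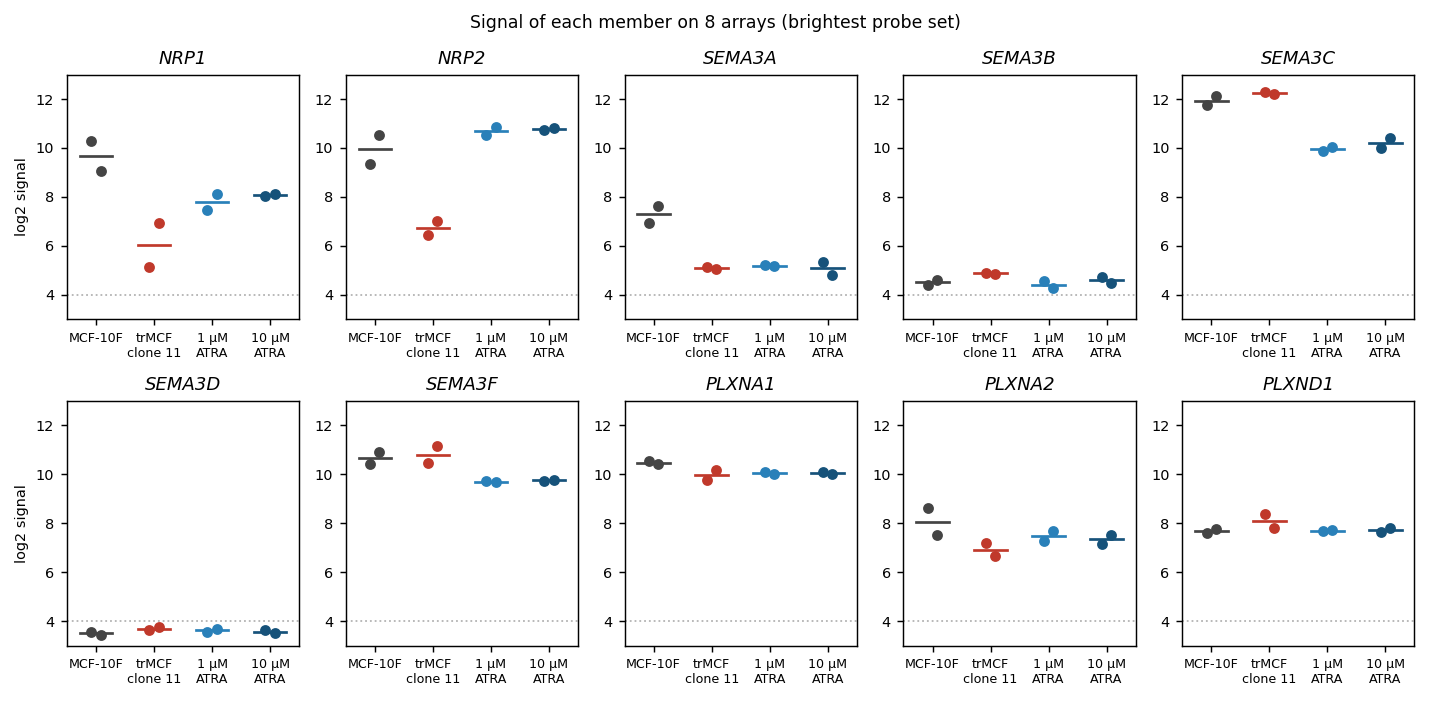
Log2 signal (vertical axis) of the brightest probe set of each of the 10 members by group; points are arrays, bars the mean of the 2 arrays of a group, and the dotted line a signal of 16. NRP2 drops in trMCF clone 11 and returns with ATRA, SEMA3C drops with ATRA, SEMA3A is highest in MCF-10F, and SEMA3D lies under the line on every array.

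Counted together at their brightest probe sets, 0 of 10 members rose and 2 fell in the clone against MCF-10F (NRP2 and SEMA3A), against 1.88% of all 19775 genes higher and 2.64% lower. At 1 μM against the clone 1 rose (NRP2) and 1 fell (SEMA3C), against 0.971% and 0.925% of all genes. At 10 μM against the clone the same pair did so, against 3.94% and 3.89%. Compared with MCF-10F, SEMA3A and SEMA3C were lower at both doses and none was higher, where 0.47% of all genes were lower and 0.142% higher at 1 μM, and 1.81% lower and 0.759% higher at 10 μM. No gene differed between the doses at limma's adjusted p, 0% in either direction. An unadjusted p under 0.05 was found for 922 of the 54613 probe sets, or 1.69%, fewer than the 5% that a test gives where nothing differs. That fit used 1 spread for all 4 groups, although the arrays of a dose lay closer together. The root mean square log2 distance was 0.215 and 0.245 between the arrays of the 1 and 10 μM doses, 0.44 in MCF-10F and 0.568 in the clone. The share therefore does not show that the doses are alike.

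By a fold of 2 with an unadjusted p under 0.05, 4 members passed in the clone against MCF-10F (NRP1, NRP2, SEMA3A and PLXNA2) beside 9.2% of all genes. At 1 μM against the clone 4 passed (NRP1, NRP2, SEMA3C and SEMA3F) beside 7.89%, and the same 4 passed at 10 μM beside 8.33%. Against MCF-10F, 3 passed at 1 μM beside 3.72% and 3 at 10 μM beside 4.51%, each time NRP1, SEMA3A and SEMA3C. Between the doses 0 passed beside 0.101%. These comparisons share arrays: the clone arrays enter the fall from MCF-10F and the rise with ATRA, so these values are not independent. With a floor of 16 set under all signals before the fit, 2 members passed limma's adjusted p at 10 μM against the clone. No member passed in any other comparison. The log2 differences of NRP2 in the clone and of SEMA3C at 1 μM against the clone were unchanged by the floor, at -3.22 and -2.28. The share of all genes called with the floor was not counted.

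The median log2 difference of the members lay near that of all genes in the clone (-0.18 against 0.06) and with 1 μM (0.00 against -0.06) or 10 μM (-0.07 against -0.01). Against MCF-10F it was -0.50 at 1 μM and -0.58 at 10 μM, where all genes had medians of 0.00 and 0.05. Their median absolute difference was 0.45, 0.51 and 0.39 in the clone, at 1 μM and at 10 μM against the clone, and 0.67 and 0.77 at the doses against MCF-10F. For all genes these were 0.25, 0.25, 0.21, 0.17 and 0.19. Over the 4 group means NRP2 spanned 4.05 on the log2 scale, and 0.303% of all genes spanned more. NRP1 spanned 3.65 (0.465% of genes wider), SEMA3C 2.28 (2.37%) and SEMA3A 2.21 (2.58%), while PLXND1 spanned 0.40, with 50.1% of genes wider.

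**Figure D3:**
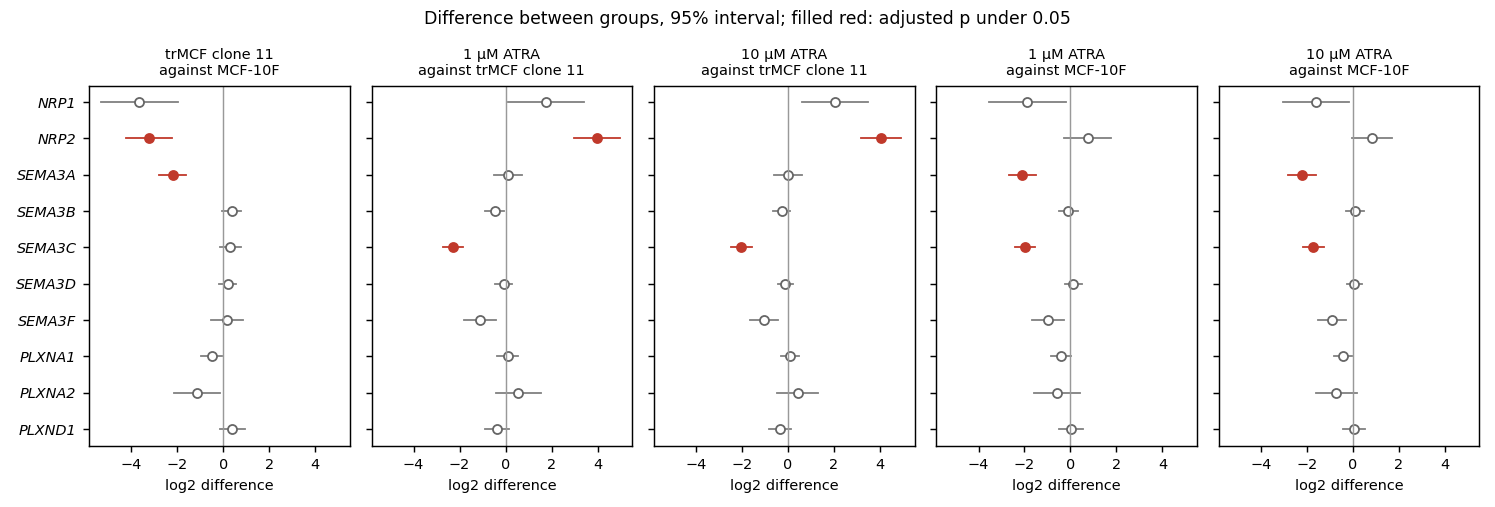
Log2 difference between groups (horizontal axis) for each member in 5 comparisons; points are the difference of means, bars its 95% interval, and filled red points passed limma's adjusted p. NRP2 is at -3.22 in the clone and at 3.97 and 4.05 with ATRA, and SEMA3C at -2.28 and -2.03 with ATRA.

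The arrays differ in ways that touch these values. Signals on 3.48% of probe sets were more than 2-fold apart between the MCF-10F arrays, on 7.71% between the clone arrays, and on 0.126% and 0.211% between the arrays of the 1 μM and 10 μM doses. MCF-10F replicate 1 was the higher for NRP1 and PLXNA2 and replicate 2 for NRP2. The 9 epithelial markers summed to 46950 to 54517 on the untreated arrays and to 42562 to 46022 on the ATRA arrays. Of them DSP and JUP fell at 10 μM against the clone. KRT7 and KRT19 were higher on every ATRA array than on both clone arrays, without passing the test. KRT7 was 8119 and 4028 in the clone and 11975 to 12495 on the ATRA arrays. The 5 measured leukocyte markers summed to 187 to 544 on the untreated arrays and to 576 to 821 on the ATRA arrays. Among them LYZ rose at 10 μM against the clone, CD14 was 149 and 108 in the clone and 436 to 661 on the ATRA arrays without passing the test, and the pan-leukocyte marker PTPRC lay between 9.93 and 14.4. The part of these markers in the members' results was not tested. Of 8 measured direct retinoid targets, genes that retinoic acid is known to induce, 1 rose and 0 fell at 1 μM against the clone, beside 0.971% and 0.925% of all genes. At 10 μM 3 rose and 0 fell, beside 3.94% and 3.89%. Among them CYP26B1, which breaks down retinoic acid, rose by 2.86 and 2.74 on the log2 scale. Not every target was higher with ATRA. CRABP2 was 191 and 196 in the clone and 89.3 to 114 on the ATRA arrays, without passing the test. RARB was 43.5 and 26.4 in the clone and 35.2 to 42.9 on the ATRA arrays.

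Endothelial cells are a known site of neuropilins. The summed signal of the 10 endothelial markers was 591 and 1369 in MCF-10F, 445 and 549.8 in the clone, 904 and 1071 at 1 μM and 1113 and 1495 at 10 μM, which moved with NRP2. None of the 10 passed the test, and 8 of them stayed under 100 on every array, CDH5 at 12.8 to 22.8 and KDR at 13.5 to 32.9. Most of the moving sum was PECAM1, at 106 and 1063 in MCF-10F, 132 and 267 in the clone, 597 and 766 at 1 μM and 821 and 1183 at 10 μM. Their part in the NRP2 result was not tested further than these levels.

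Among the other genes of the pathway, 53 were listed and 51 had a probe set of their own. They were the remaining class 3 semaphorins and plexins, semaphorins of classes 4 to 7, VEGF ligands and receptors, and co-receptors with intracellular partners. In the clone against MCF-10F 1 of the 51 rose and 2 fell, beside 1.88% and 2.64% of all genes. At 1 μM against the clone 1 rose and 0 fell, beside 0.971% and 0.925%. At 10 μM against the clone 1 rose and 3 fell, beside 3.94% and 3.89%. Against MCF-10F 0 passed at 1 μM, beside 0.142% of all genes higher and 0.47% lower. At 10 μM against MCF-10F 0 rose and 1 fell, beside 0.759% and 1.81%. None of the 8 other class 3 semaphorins and plexins passed at 1 μM, and PLXNB1 fell at 10 μM by 0.94. None of the 7 measured VEGF ligands and receptors passed in any comparison.

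FYN, a kinase of the SRC family that acts downstream of SEMA3A, had a signal of 508 and 307 in MCF-10F, 93.6 and 96.7 in the clone, 110.2 and 73.6 at 1 μM and 75.1 and 65.5 at 10 μM. Both MCF-10F arrays lay above the other 6, as for SEMA3A. It fell in the clone by 2.05 on the log2 scale (limma adjusted p = 0.0323) and was lower at 10 μM than in MCF-10F (-2.49, limma adjusted p = 0.00937). At 1 μM the difference from MCF-10F did not pass the test.

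SEMA6A, a membrane-bound semaphorin, went the opposite way from NRP2. Its signal was 31.6 and 50.3 in MCF-10F, 126 and 117 in the clone, 51.9 and 35.2 at 1 μM and 56.8 and 46.0 at 10 μM, with both clone arrays above all others. It rose in the clone by 1.61 (limma adjusted p = 0.0472) and fell with 10 μM by 1.25 (limma adjusted p = 0.0443). SEMA4C, a ligand of plexin-B2, was 511 and 719 in MCF-10F, 629 and 626 in the clone, 309 and 391.7 at 1 μM and 253 and 349.8 at 10 μM, and fell with 10 μM by 1.08 (limma adjusted p = 0.043). For both SEMA6A and SEMA4C the 1 μM arrays also lay below both clone arrays, without passing the test.

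MST1R, the RON receptor tyrosine kinase that can pair with B plexins, was lowest in the clone, as NRP2 was. Its signal was 289 and 204 in MCF-10F, 114 and 109.7 in the clone, 311 and 339 at 1 μM and 242 and 293 at 10 μM, so the clone arrays lay below all others and the 10 μM arrays overlapped MCF-10F. It fell in the clone by 1.12 (limma adjusted p = 0.0473) and rose by 1.54 at 1 μM (limma adjusted p = 0.0376) and by 1.25 at 10 μM (limma adjusted p = 0.0177).

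**Figure D4:**
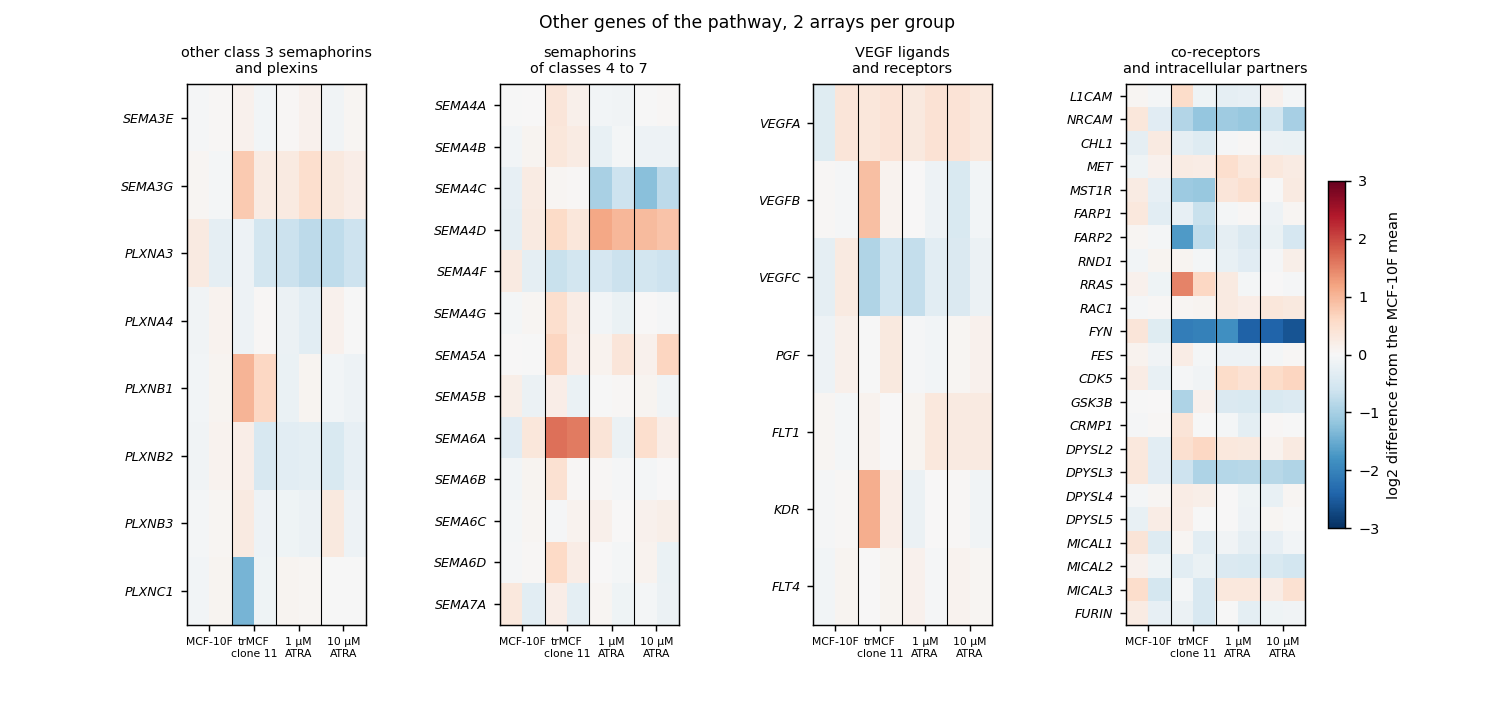
Log2 signal minus the MCF-10F mean (colour, red higher and blue lower) of the 51 other pathway genes in rows, in 4 panels by list, with 2 arrays per group in columns. FYN is blue in every group but MCF-10F, SEMA6A is red in trMCF clone 11, and MST1R is blue there.

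The genes most like NRP2 over the 8 arrays, among 3091 genes whose group means span at least 1 on the log2 scale, were PCSK5 (Pearson r = 0.994), TLR3 (0.992), FDX1 (0.990) and ZBED10P (0.988). The 8 arrays form 4 groups, so r here describes a shared order of groups and carries no p. PCSK5, a proprotein convertase, was 587 and 879 in MCF-10F, 82.6 and 126 in the clone, 832 and 1093 at 1 μM and 1138 and 1261 at 10 μM. TLR3, a sensor of double-stranded RNA, was 86.7 and 144 in MCF-10F, 14.3 and 14.5 in the clone, 146 and 143 at 1 μM and 155 and 161 at 10 μM. For both genes the clone arrays lay far below all others.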

How the data were processed

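Total RNA of 8 samples had been hybridised to 1-colour Affymetrix U133 Plus 2.0 arrays, 2 per group. The deposited values are linear signal intensities, 1 per probe set and array, that the authors scaled between arrays. Both MAS 5.0 (global scaling) and Iterative Plier 16 appear in the methods, which leave unsaid which of them gave this table. Array medians were 47.3 to 48.8, and 21.5 to 23.7% of signals lay under 16. No scanner file was used, and the number of arrays limits the precision.

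Signals were taken as log2 as deposited. The table has 54675 probe sets, of which 62 are controls and did not enter. Of the others, 41091 name 1 gene, 1801 several and 11721 none in the platform annotation, and the brightest probe set stood for each gene. Groups came from sample titles. limma 3.58.1 under R 4.3.3 (lmFit, eBayes, 1 mean per group) compared the groups on 6 arrays (MCF-10F, trMCF clone 11, 1 μM) and on all 8 for the 10 μM dose, with Benjamini-Hochberg adjustment over all 54613 probe sets. Rose and fell are kept for an adjusted p under 0.05. The fold rule was 2-fold at an unadjusted p under 0.05. The methods name the same fold and p threshold without stating whether that p was adjusted. The script was tested on simulated data.

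The members, lists and tests were chosen with earlier results of these data known. Named beside the members are other pathway genes past the adjusted p with a log2 change of at least 1, and the 4 genes with the highest r to the member of widest span. PLXNB1 and the single markers stand outside that rule and were named after their values were seen. Alternatives were other sets of arrays in the fit, quantile normalization, a floor of 16, no dim probe sets, a trend and robust prior, a replicate block, other probe sets and each array left out. Promoters were read with Python 3 from a RefSeq table, and figures drawn with matplotlib.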

Additional observations from a re-analysis of the deposited data

Results flagged for a closer look

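The symbol SEMA3B also stands on a probe set that names MIR6872 as well and so enters no value of a gene above. Its signal was 157 and 213 in MCF-10F, 86.7 and 57.9 in trMCF clone 11, 326 and 358 at 1 μM and 342 and 434 at 10 μM. The clone arrays lay below all others and the ATRA arrays above them. Against the clone it was higher by 2.27 on the log2 scale at 1 μM (limma adjusted p = 0.0281) and by 2.44 at 10 μM (limma adjusted p = 0.00536), while the difference of the clone from MCF-10F, -1.37, did not pass the test (limma adjusted p = 0.0502). The probe set of SEMA3B alone, at 19.5 to 30.1, did not move this way. It was singled out as a signal outside the main measurement, and which transcript it measures was not tested.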

How the results depend on the processing

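Of the members' differences that were called or at least 2-fold, none changed direction under an alternative. Of these values, 235 kept their side of the threshold, 38 lost it and 18 gained it. Members called numbered 2 in each comparison other than 10 against 1 μM, which gave 0 throughout. In the clone against MCF-10F the count was 3 with all 8 arrays, 3 without the dimmest probe sets, 3 with a trend and robust prior, 0 with only the compared arrays, 0 with a floor of 16, 1 with the mean over a gene's probe sets and 4 by the fold rule. At 1 μM against the clone it was 0 with the floor, 1 without probe sets that carry a shared-target suffix and 4 by the fold rule. At 1 μM against MCF-10F it was 1 after quantile normalization, 0 with the floor, 1 with the mean over probe sets, 0 without suffixed probe sets and 3 by the fold rule. At 10 μM against the clone it was 3 after quantile normalization, 3 with the mean over probe sets, 1 without suffixed probe sets and 4 by the fold rule. At 10 μM against MCF-10F it was 0 with the floor, 1 with the mean over probe sets, 1 without suffixed probe sets and 3 by the fold rule. Both SEMA3C probe sets carry the suffix and so leave that setting; the other causes were not tested. Leaving out 1 array at a time gave 0 to 5, 0 to 3, 0 to 2, 0 to 4 and 0 to 3 in the same order of comparisons.

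With the replicate number as a block the counts were 2, 2, 1, 3, 2 and 0. The deviations of same-numbered arrays correlated at 0.351 between the 1 and 10 μM doses and from -0.056 to 0.149 between the other pairs of groups. The main fits did not pair the arrays by number, and the source of the higher value between the doses was not tested. With 2 arrays per group the spread between arrays limits what can pass: NRP1, with a standard error of 0.68, lay at the threshold, while the smaller difference of NRP2, with 0.41, passed. Signals near 16, as for SEMA3D, carry no readable difference.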
